A study of Mus musculus with 6 samples.

Results

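The genes described here are the heat shock and DNAJ chaperone genes of the mouse, followed at their promoters in 6 CUT&Tag libraries from primary cardiac fibroblasts. Their members were chosen by symbol: every gene whose name begins with Hspa, Hspb, Hspd1, Hspe1, Hsph1, Hsp90 or Dnaj, with Hsf1, Hsf2 and Chordc1, leaving out Hspbap1 and pseudogenes. The set was proposed after values of these libraries had been seen, and for each gene the region was selected on its signal, as the densest region within 3 kb of the transcription start site (TSS). The ratios at these regions are therefore descriptions and carry no test. RefSeq lists 76 protein-coding genes that match the names, and a region within 3 kb of a TSS was found for 62 of them, among 26742 genes with a region anywhere in the deposited tables.

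CUT&Tag uses an antibody to bring a transposase to chromatin, so that reads gather where the protein it recognises is bound. The labels mark 3 libraries with a T and 3 with an S, which are treated below as a T set and an S set. Since the study profiled TAZ, a coactivator of the TEAD factors, and SRF, a serum response transcription factor, T is read as TAZ and S as SRF, although the sample labels name no antibody. Each set has 1 library each for NC, TGF-b and TGF-b+SiTAZ (T set) or TGF-b+SiSRF (S set), here called TGF-b with siRNA. All are labelled as primary cardiac fibroblasts from heart, and neither the age nor the strain of the mice is among the labels. TGF-b is the cytokine that drives fibroblasts to become myofibroblasts. The study's text speaks of siRNA against Piezo2 for this experiment and the series design speaks of Tet3 deletion by Cre virus, so the target of the siRNA is uncertain, and chromatin association cannot check it. With 1 library per treatment there were no replicates, and every comparison below is between libraries and not between conditions.

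Chaperones bind unfolded proteins and help them to reach or keep their shape. The HSP70 proteins do so in cycles of ATP hydrolysis that DNAJ proteins, also called HSP40, start and that the HSP110 proteins end by exchanging the nucleotide, while HSP90 takes over clients such as kinases and steroid receptors. Heat shock factor 1 switches on many of these genes through heat shock elements, repeats of GAA and its complement TTC, and the chaperones of the endoplasmic reticulum (ER) are switched on through the ER stress element. In fibroblasts that secrete matrix, ER chaperones fold the secreted proteins.

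The promoter sequences of 61 member genes were found in the RefSeq promoter table (GRCm38.p6), which spans 250 bases before to 50 bases after each start, and they were read because the densest regions lie there. The letters of the ER stress element, CCAAT and CCACG with 9 bases between them on either strand, were present in 3 of the 61 members (4.92%), Hsp90b1, Hspa5 and Dnajc3, against 0.137% of the 27025 genes in the table. This element was added to the search after the first results were seen. Hsp90b1, the HSP90 of the ER, carries it 2 times within 250 bases of its start, and Hspa5, the HSP70 of the ER known as BiP, carries it 65 to 47 bases upstream. Hspd1, the mitochondrial chaperonin HSP60, faces Hspe1, its partner HSP10, across a shared promoter. It carries 3 overlapping heat shock element matches between 144 and 127 bases upstream of 1 RefSeq start. The 250 bases before the other RefSeq start of Hspd1 held no match. In the sequences below, capitals mark the ER stress elements of Hsp90b1 and Hspa5 and the heat shock element letters of Hspd1.
Hsp90b1, chr10:86705445-86705694, minus strand: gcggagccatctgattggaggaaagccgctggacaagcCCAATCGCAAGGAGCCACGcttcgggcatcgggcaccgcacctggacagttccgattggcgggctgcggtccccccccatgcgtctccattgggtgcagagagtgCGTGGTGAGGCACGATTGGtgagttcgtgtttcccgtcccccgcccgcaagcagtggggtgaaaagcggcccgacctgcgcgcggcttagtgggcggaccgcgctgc
Hspa5, chr2:34771840-34772089, plus strand: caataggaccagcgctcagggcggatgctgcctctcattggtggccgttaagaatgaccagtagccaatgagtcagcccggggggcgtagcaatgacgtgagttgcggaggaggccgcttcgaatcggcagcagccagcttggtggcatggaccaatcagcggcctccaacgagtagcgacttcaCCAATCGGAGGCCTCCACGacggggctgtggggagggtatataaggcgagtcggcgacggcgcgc
Hspd1, chr1:55087933-55088182, minus strand: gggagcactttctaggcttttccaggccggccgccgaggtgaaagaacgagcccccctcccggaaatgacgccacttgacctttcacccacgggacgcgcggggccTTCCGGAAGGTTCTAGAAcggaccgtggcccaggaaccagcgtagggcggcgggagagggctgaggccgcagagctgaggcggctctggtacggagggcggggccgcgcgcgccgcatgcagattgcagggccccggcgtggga

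The heat shock element was searched on both strands as GAANNTTC and as TTCNNGAA, which can overlap. GAANNTTC was in 15 of 61 members (24.6%) and in 9.04% of all promoters, and TTCNNGAA was in 7 members (11.5%) and in 9.60% of all promoters. An unbroken run of GAA and TTC units in 3 alternating steps was in 5 members (8.20%), Chordc1, Dnajb6, Hspd1, Hspe1 and Hsph1, against 0.662% of all promoters. Windows of 30 bases are shown for genes whose regions are described below, with the matched letters in capitals. The Chordc1 window runs across its start, from 4 bases before to 19 bases after it, and that of Hsph1 lies 16 to 28 or 37 to 49 bases after the start, depending on which RefSeq start is taken. The Dnajb6 match lies 46 to 34 or 127 to 115 bases upstream, again depending on the start. The Hspa1b match lies 104 to 97 bases upstream, and the Hspb1 match shown, at 97 to 90 bases, is the nearer of 2, the other lying at 117 to 110 bases.
Chordc1, chr9:18292259-18292288, plus strand: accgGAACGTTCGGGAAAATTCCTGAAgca
Hsph1, chr5:149636280-149636309, minus strand: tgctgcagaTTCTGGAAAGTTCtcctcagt
Dnajb6, chr5:29735843-29735872, plus strand: cagctccgaGAATCTTCCGGAAcgctagac
Hspa1b, chr17:34959324-34959353, minus strand: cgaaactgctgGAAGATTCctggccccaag
Hspb1, chr5:135887811-135887840, plus strand: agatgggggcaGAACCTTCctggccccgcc

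The letters of the other motifs were no more common in the members than in all genes. GGAATG, the TEAD motif, was in 8 members (13.1%) and in 16.6% of all promoters, the CArG box bound by SRF was in 1 member (1.64%, Dnajc16) and in 1.81%, and TATAAA was in 4 members (6.56%) and in 15.7%. Member promoters were rich in CpG, with a median ratio of observed to expected CpG of 0.828 against 0.389 for all genes and 0.638 for all genes with a region within 3 kb. Their median GC content was 62.0% against 52.7% for all genes and 58.0% for all genes with a region within 3 kb. A matching set of letters describes the sequence and is not a binding site.

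The whole series can be described briefly. The number of regions called per library ran from 25891 to 134584, and the median reads in a called region from 7 to 13. The S set libraries had 27986, 25891 and 28738 called regions in NC, TGF-b and TGF-b with siRNA. A region within 3 kb of the TSS was found for 6 of 8 fibroblast marker genes in the T set and 2 of 8 in the S set, and for 5 of 5 and 3 of 5 cardiomyocyte marker genes. Binding near a gene does not report its transcription, so these counts cannot check the labelled cell type.

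The T set covered far more of the chaperone genes than the S set. All 62 genes with a promoter region had it in a T set table, and 37 of them also had it in an S set table, a share of 59.7% against 39.8% for all genes with a T set promoter region. Conversely, 100% of the S set members were also T set genes, against 82.7% of all S set genes. The 25 genes found in the T set alone included Hspa5, Hspa1b, Hspa4, Hspb1, Hspb8, Dnaja1 and Dnajb11. No region was listed for 10 members, among them Hsp90ab1, the constitutive cytosolic HSP90, Hspa1a, the neighbour of Hspa1b, Hspa9, the mitochondrial HSP70, and Hspe1, whose start lies within 1 kb of that of Hspd1. Regions of Dnajb14, Dnajc24, Dnajc3 and Dnajc7 lay beyond 3 kb. At the limit of 3 kb, the Hspb9 region just inside lay 2843 bp from the TSS with 7 and 6 reads in T set NC and TGF-b, and the Hspb8 region just outside lay 3425 bp away with 16 and 3 reads in T set TGF-b and TGF-b with siRNA.

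The member regions sat closer to the TSS than those of other genes. Within 1 kb of the TSS lay 90.4% of members against 68.6% of all genes in the T set table of TGF-b and NC, and 89.3% against 67.5% in that of TGF-b with siRNA and TGF-b. The S set shares were 96.2% against 70.1% and 97.1% against 76.4%. The median distance was 65 to 90 bp for members and 173 to 391 bp for all genes over the 4 tables. Member regions also held more reads, with a median of 40.5 against 28 reads in both libraries of the T set table of TGF-b and NC, 35.5 against 22, 28.5 against 24, and 37 against 29 in the other tables, in the same order.

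**Figure D1:**
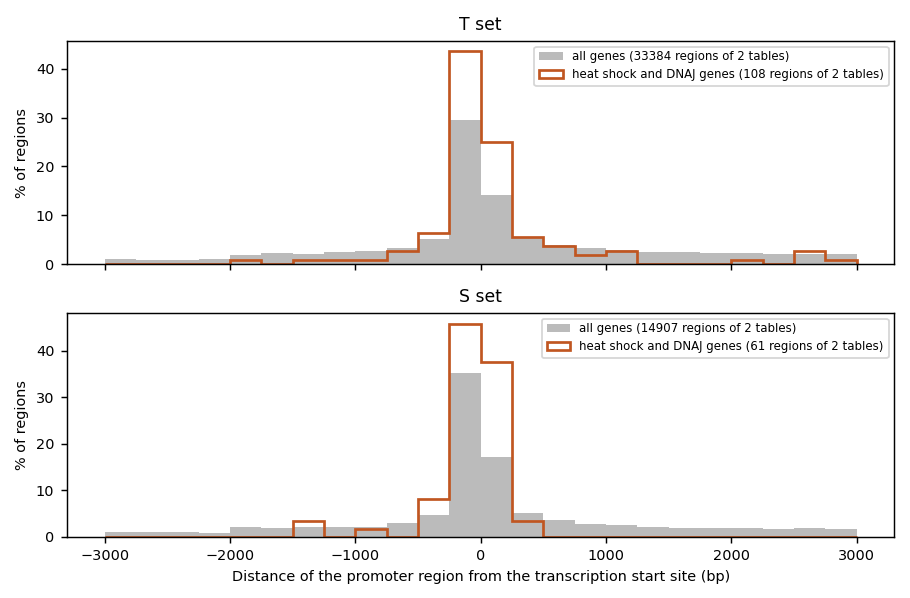
Distance of the densest promoter region from the TSS in bp, as the percentage of regions per 250 bp bin, for the heat shock and DNAJ genes (orange line) and all genes (grey) of the T set (upper) and S set (lower), each pooling the 2 tables of the set. The member regions peak in the bins on either side of the TSS more sharply than those of all genes.

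The first comparison asks whether the factor's signal at chaperone promoters was higher after TGF-b. In the T set, 52 members had a promoter region in the table of TGF-b and NC. The log2 ratio of the deposited normalized read density, TGF-b over NC, had a median of 0.51 in the members and of -0.04 in all 16652 genes. It was above 0 in 40 members (76.9%) and in 48.2% of all genes. The density was at least 2-fold higher in 14 members (26.9%, against 20.6% of all genes) and at least 2-fold lower in 4 members (7.69%, against 25.1%). By the mean over all regions of a gene the count higher was 9 of 52 against 18.1% of all genes, so that the share higher did not stand above the background, and the medians were 0.26 and -0.15. The TGF-b library, which both T set tables share, stood apart with 53121 called regions against 127036 in NC and 134584 with siRNA, and its part in the ratios of both tables was not tested. By the 95% interval of the ratio, which covers counting error only, 20 members (38.5%) lay above 0, against 22.7% of all genes, and 4 members (7.69%) lay below 0, against 21.7%. Distance and depth moved with this difference: among regions within 1 kb that hold 20 reads or more, the medians were 0.51 for 42 members and 0.24 for all genes, with 10 of 42 members at least 2-fold higher against 21.5% of all genes and 3 of 42 at least 2-fold lower against 12.9%. The share at least 2-fold higher was near the background there. The part of distance and depth in the result beyond that was not tested.

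Among the HSP90 genes, Hsp90aa1, the inducible cytosolic form, had 7 reads in NC and 60 in TGF-b at a region 147 bp upstream of the TSS (chromosome 12, 110662825 to 110663127, GRCm39). The log2 ratio was 2.98 (2.04 to 4.25), a 7.87-fold higher density, and the region was called in TGF-b only. By the mean over all regions of Hsp90aa1 the log2 ratio was 0.49. With siRNA it held 25 reads, and the log2 ratio over TGF-b was -0.75 (-1.45 to -0.12). Hsp90b1 held the most reads of all member regions with 76 in NC, 112 in TGF-b and 40 in TGF-b with siRNA at the promoter whose ER stress elements are shown above (chromosome 10, 86541274 to 86541662). Where a pair of successive ratios is given, it is TGF-b over NC and then siRNA over TGF-b. Those of Hsp90b1 were 0.47 (0.06 to 0.89) and -0.98 (-1.52 to -0.48), and by the mean over its regions the first was -0.85, of the opposite sign. The region stood at percentile 99.0 of all genes by mean density. Chordc1, a zinc-binding partner of HSP90, held 36, 49 and 35 reads, and neither of its log2 ratios of 0.42 (-0.19 to 1.05) and 0.01 (-0.63 to 0.62) was distinguishable from 0 at this depth.

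Of the 7 HSP70 genes with a region, 1 was at least 2-fold higher, against 20.6% of all genes. It was Hspa8, the constitutive HSP70 known as HSC70, with 31 reads in NC and 67 in TGF-b across its start (chromosome 9, 40712050 to 40712524), for a log2 ratio of 1.07 (0.48 to 1.70). It held 73 reads with siRNA, a log2 ratio of 0.61 (0.14 to 1.09) over TGF-b, and 0.12 without the authors' rescaling line. The size of this second ratio thus depends on that line. The ER gene Hspa5 held 39 reads in NC and 41 in TGF-b, for a log2 ratio of 0.06 (-0.57 to 0.69), and 21 with siRNA, a log2 ratio of -0.46 (-1.24 to 0.26). Hspa1b, the stress-inducible HSP70, held 16, 18 and 6 reads, with successive log2 ratios of 0.22 (-0.72 to 1.19) and -0.98 (-2.41 to 0.17). None of the Hspa5 and Hspa1b intervals left out 0, and by the mean over regions Hspa1b was at -0.95 over NC and Hspa5 at 0.34 over TGF-b. Hspa1b and Hspa1a are near-identical copies, and reads that match both cannot be told apart.

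The 3 HSP110 genes, which exchange nucleotide on HSP70, each had the same densest region in both T set tables. Reads are not scaled to library size, and presence in both tables favours signal in TGF-b. The order of the libraries is therefore no result. Hspa4l carried 23 reads in NC, 52 in TGF-b and 14 with siRNA (chromosome 3, 40699554 to 40699981), with successive log2 ratios of 1.14 (0.48 to 1.88) and -1.35 (-2.26 to -0.58). Both of its intervals left out 0. Hsph1 held 31, 40 and 47 reads, with successive log2 ratios of 0.36 (-0.30 to 1.04) and 0.71 (0.11 to 1.32). Hspa4 held 44, 32 and 20 reads and had log2 ratios of -0.45 (-1.12 to 0.19) and -0.18 (-1.0 to 0.59). Hspbp1, an HSP70 nucleotide exchange factor that the symbol rule takes in, held 13, 34 and 16 reads, with successive log2 ratios of 1.37 (0.53 to 2.34) and -0.57 (-1.46 to 0.23).

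Hspb symbols are named after the small heat shock proteins, which hold unfolded proteins without ATP. Of the 8 genes counted by such a symbol, with Hspbp1 set aside, 4 had a region. Their median log2 ratio was -0.24, and at the densest region 0 of 4 were at least 2-fold higher (against 20.6% of all genes) and 1 lower (against 25.1%), too few to set apart from the background. Hspb6, also called HSP20, held 28 reads in NC and 11 in TGF-b, for a log2 ratio of -1.21 (-2.27 to -0.30). Hspb1, whose heat shock element is shown above, held 15 and 17 reads, a ratio of 0.24 (-0.73 to 1.23) that was 1.53 by the mean over its regions, and Hspb8 held 24 and 17 reads at an intron region 2532 bp from the TSS, a ratio of -0.42 (-1.33 to 0.43).

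Of the 4 DNAJA and 13 DNAJB genes, 2 and 11 had a region. Dnajb1, the main cytosolic HSP40, carried 49 reads in NC, 101 in TGF-b and 27 with siRNA (chromosome 8, 84334530 to 84334945). Its log2 ratios were 0.97 (0.49 to 1.47) and -1.38 (-2.03 to -0.81), and by the mean over its regions the second was -0.13. None of the searched heat shock, TEAD, SRF or ER motif letters were in the 250 bases before its upstream RefSeq start, shown here because Dnajb1 is among the deepest member regions.
Dnajb1, chr8:83607925-83608174, plus strand: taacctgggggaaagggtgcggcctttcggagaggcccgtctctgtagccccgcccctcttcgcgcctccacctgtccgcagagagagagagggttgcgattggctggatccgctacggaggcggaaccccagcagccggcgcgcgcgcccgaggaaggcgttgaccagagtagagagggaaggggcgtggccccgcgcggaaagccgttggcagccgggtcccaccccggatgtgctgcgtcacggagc

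Dnajb11, a co-chaperone of BiP in the ER, held 12, 44 and 35 reads, with successive log2 ratios of 1.83 (1.01 to 2.82) and 0.16 (-0.49 to 0.78). Dnajb5, a cytosolic HSP40, held 55, 85 and 34 reads, with ratios of 0.56 (0.08 to 1.06) and -0.81 (-1.41 to -0.27), the second of which was 0.14 by the mean over its regions. Dnajb4, another cytosolic HSP40, held 27, 41 and 24 reads, with ratios of 0.59 (-0.09 to 1.30) and -0.27 (-1.02 to 0.42), against 1.89 and -1.95 by the mean over its regions. Dnajb6, whose heat shock element letters are shown above, held 15 and 25 reads, a ratio of 0.75 (-0.12 to 1.70). Dnajb9, an ER co-chaperone, held 18 reads in NC and 15 in TGF-b, a ratio of -0.18 (-1.17 to 0.77). Dnaja4 had the lowest ratio of all 52 members, -1.77 (-3.32 to -0.61), from 21 reads in NC and 5 in TGF-b at an intron region.

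The DNAJC genes, the largest and most varied class, had 19 regions, of which 7 were at least 2-fold higher (against 20.6% of all genes) and 2 at least 2-fold lower (against 25.1%) in TGF-b, with a median log2 ratio of 0.85. Of the 7, Dnajc11, Dnajc28 and Dnajc19 had 0, 1 and 2 reads in NC. Dnajc13, an endosomal DNAJ protein, held 8 reads in NC and 65 in TGF-b 171 bp upstream of its TSS, a log2 ratio of 2.91 (2.02 to 4.10). Dnajc5b, a relative of the cysteine string protein, held 8 and 30 reads at an intron region, a ratio of 1.86 (0.88 to 3.08). With the mean over all regions of the gene in place of the densest, the ratios of both turned negative, to -0.66 for Dnajc13 and -0.65 for Dnajc5b. Dnajc5g, of the same family as Dnajc5b, had a ratio of -1.73 (-3.47 to -0.46) from 17 and 4 reads. Hsf1, the master regulator of the heat shock response, carried 35 reads in NC, 60 in TGF-b and 29 with siRNA, with successive log2 ratios of 0.74 (0.16 to 1.35) and -0.54 (-1.20 to 0.07), the second being 0.14 by the mean over its regions. Hsf2 held 12, 17 and 1 reads at an exon region 1161 bp into the gene, with ratios of 0.55 (-0.46 to 1.62) and -2.72 (-6.20 to -1.08), the second being -1.72 with siRNA set to 3 reads.

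**Figure D2:**
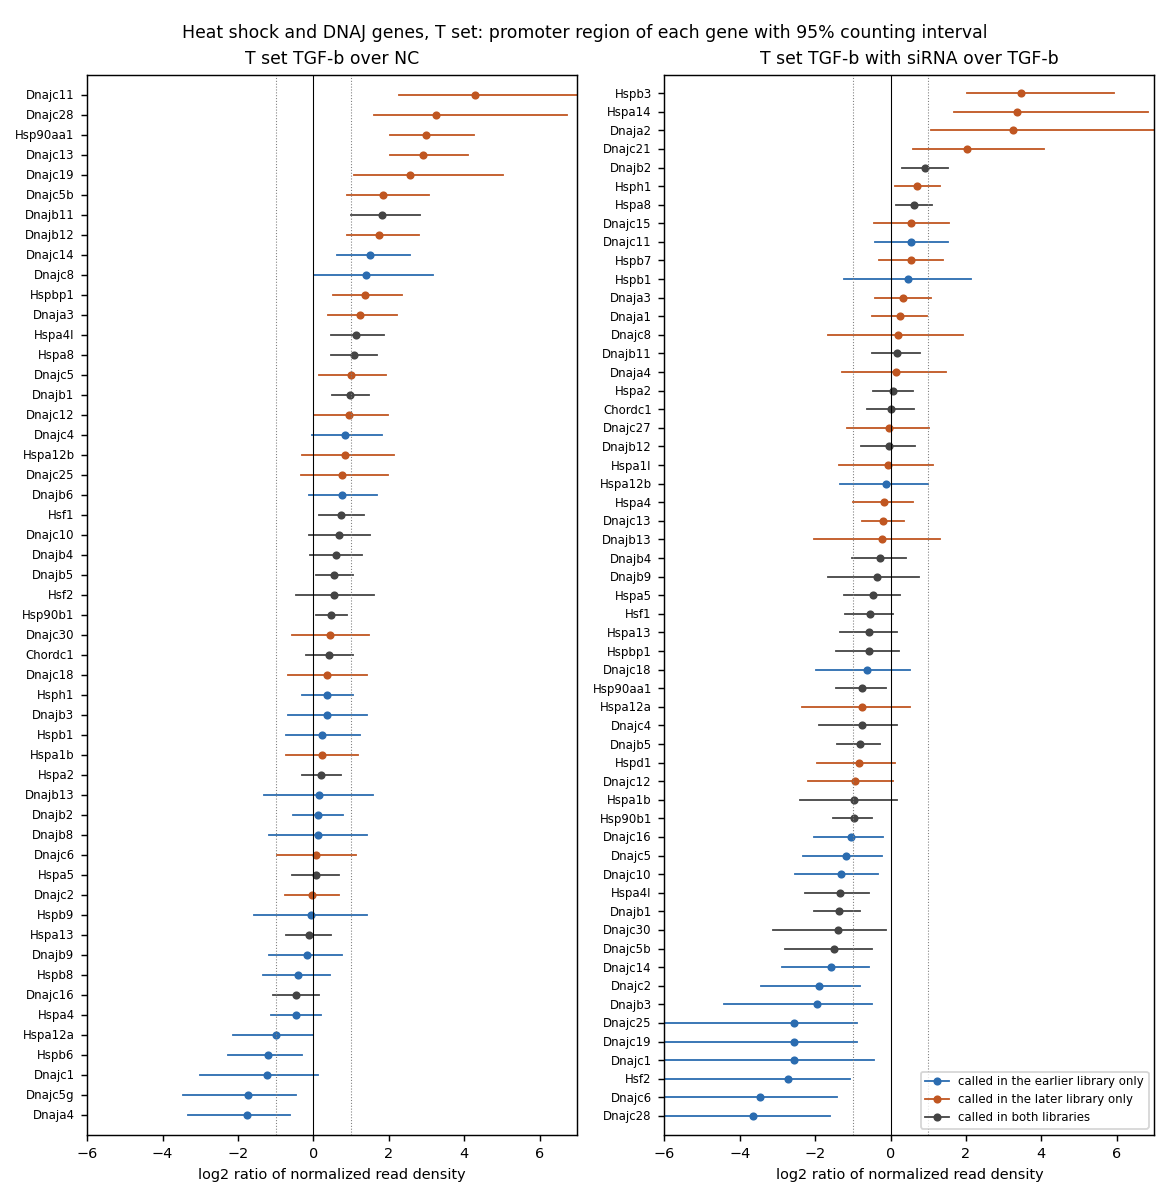
log2 ratio of the normalized read density (x axis) at the densest promoter region of each heat shock and DNAJ gene (y axis) in the T set, TGF-b over NC on the left (52 genes) and TGF-b with siRNA over TGF-b on the right (56 genes). Points are ratios, lines are 95% counting intervals clipped at the axis limits, dotted lines mark 2-fold, and colours give the library in which the region was called; 40 of 52 points lie above 0 on the left and 18 of 56 on the right.

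The next comparison asks whether the T set signal was lower when siRNA was added to TGF-b. In the table of TGF-b with siRNA and TGF-b, 56 members had a promoter region. Their median log2 ratio was -0.50, against 0.20 for all 16732 genes, and the ratio was above 0 in 18 members (32.1%) against 55.6% of all genes. At least 2-fold lower were 16 members (28.6%, against 20.4% of all genes) and at least 2-fold higher 4 members (7.14%, against 31.5%). The interval lay below 0 in 19 members (33.9%, against 20.3%) and above 0 in 7 members (12.5%, against 27.0%). Leaving out the authors' line moved the medians to -0.98 and -0.26, with 28 of 56 members at least 2-fold lower against 31.1%, and by the mean over regions of a gene they were -0.05 and 0.32. This table and the table of TGF-b and NC share the TGF-b library, so their ratios are not independent. Among regions within 1 kb that hold 20 reads or more, the medians were -0.54 for 39 members and -0.21 for all genes, and 9 of 39 members were at least 2-fold lower against 23.0% of all genes, so that the share at least 2-fold lower did not stand above the background there.

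The DNAJC genes made up most of the lower members, with 12 of 21 at least 2-fold lower (against 20.4% of all genes) and a median log2 ratio of -1.17. Of the 12, Dnajc1, Dnajc6 and Dnajc28 had 0 reads with siRNA and Dnajc19 and Dnajc25 had 1. With 20 reads or more, 9 of 41 members of all classes were at least 2-fold lower, against 20.9% of all genes. Dnajc14, which takes part in export from the ER, held 32 reads in TGF-b and 7 with siRNA, a ratio of -1.58 (-2.88 to -0.58), after 11 and 32 reads and a ratio of 1.51 (0.63 to 2.57) over NC at a neighbouring region. Dnajc5b went from 30 to 7 reads at the region described above, a ratio of -1.49 (-2.79 to -0.48). Dnajc2, a ribosome-bound DNAJ protein, held 30 and 5 reads, a ratio of -1.91 (-3.44 to -0.80), and 31 reads in NC. With the mean over all regions of a gene, the ratios of Dnajc2 and Dnajc5b were 0.11 and 0.33. Dnajc13 had another densest region in this table, with 66 reads in TGF-b and 41 with siRNA and a ratio of -0.19 (-0.76 to 0.36).

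The interval lay above 0 with siRNA in 7 members, of which Hspa14 (1 and 14 reads), Dnajc21 (3 and 11) and Dnaja2 (0 and 6) had few reads. Hspb3, a small heat shock protein of muscle, held 2 reads in TGF-b and 23 with siRNA at a region 2581 bp from its TSS, a log2 ratio of 3.46 (2.04 to 5.92) and a ratio of 8.23-fold with TGF-b set to 3 reads. Dnajb2, a DNAJ protein best known from neurons, held 37 and 50 reads, a ratio of 0.91 (0.31 to 1.52). Hsph1 and Hspa8 followed, with the values given above. Without the authors' line the ratios were 3.0 for Hspb3, 0.42 for Dnajb2, 0.23 for Hsph1 and 0.12 for Hspa8, so that the size of the last 3 depends on that line. Hspd1, the chaperonin gene whose heat shock element letters are shown above, held 26 and 10 reads, a ratio of -0.83 (-1.94 to 0.12), and Dnaja1, a cytosolic HSP40, held 33 and 28 reads, a ratio of 0.25 (-0.48 to 0.96). At Dnajb9 the reads were 15 and 8 (-0.37, -1.65 to 0.76), and at Hspb1, 1754 bp upstream of the TSS, they were 5 and 5 (0.45, -1.24 to 2.14).

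In the S set, 26 members had a promoter region in the table of TGF-b and NC. Their median log2 ratio was 0.64, against 0.20 for all 6762 genes, and it was above 0 in 21 members (80.8%) against 57.7% of all genes. At least 2-fold higher were 8 members (30.8%, against 22.2% of all genes) and at least 2-fold lower 2 members (7.69%, against 15.9%). The interval lay above 0 in 6 members (23.1%, against 18.9%) and below 0 in 0 members, against 11.5% of all genes. Without the authors' rescaling line the members' median was 1.20 and that of all genes 0.77, and 18 of 26 members were at least 2-fold higher (against 42.7% of all genes) and 0 lower (against 8.40%), so the size of these ratios depends on that line. With regions within 1 kb that hold 20 reads or more, the medians were 0.70 for 19 members and 0.41 for all genes, and 5 of 19 members were at least 2-fold higher against 23.4%.

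Chordc1 had the highest S set ratio, with 2 reads in NC, 37 in TGF-b and 41 with siRNA at a region across its start (chromosome 9, 18203262 to 18203644), the gene whose run of heat shock element letters is shown above. Its log2 ratios were 3.09 (1.72 to 5.54) over NC and 0.16 (-0.47 to 0.80) over TGF-b, in a region that overlaps the T set region. The interval over NC left out 0 and that over TGF-b did not. Dnajc4, a small DNAJ protein of mitochondria, held 3, 28 and 7 reads, with ratios of 2.28 (1.02 to 4.28) and -1.78 (-3.09 to -0.76). Of the S set libraries its region was called in TGF-b alone, so the order of the libraries there is no result. Hspa8 held 8, 32 and 22 reads, with ratios of 1.32 (0.35 to 2.53) and -0.48 (-1.27 to 0.27). Dnajc14 held 4, 21 and 14 reads, with ratios of 1.56 (0.34 to 3.29) and -0.49 (-1.48 to 0.44).

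The S set interval over NC also left out 0 at Dnajc25 (4 and 20 reads, 1.49, 0.26 to 3.23) and Dnajc5g (2 and 14 reads, 1.73, 0.24 to 4.19), and it included 0 at the members that follow. Hsp90b1 held 12, 31 and 49 reads, a ratio of 0.75 (-0.13 to 1.76) over NC. Dnajb1 held 18, 39 and 31 reads and had a ratio of 0.53 (-0.22 to 1.37). Hspd1 held 9, 23 and 26 reads, a ratio of 0.70 (-0.29 to 1.88), and Dnajb9 held 11, 31 and 15 reads, a ratio of 0.86 (-0.03 to 1.92). In all of these NC had the fewest reads, but reads are not scaled to library size. Over all genes the authors' line lowered the log2 ratio by a median of 0.57, so fewer reads in NC are no result. Hsf1 held 10, 22 and 16 reads, with a ratio of 0.50 (-0.48 to 1.63), Hsph1 16, 28 and 33 reads, with 0.22 (-0.61 to 1.13), and Hspa2, an HSP70 of the testis that is also found elsewhere, 22, 34 and 41 reads, with 0.07 (-0.67 to 0.85). Dnajb4 held 7 and 5 reads at a region whose summit lay 16488 bp from that of the T set, a ratio of -1.01 (-2.65 to 0.50). The lowest among members with 20 reads or more were Hspa2, Dnajb13 (8 and 12 reads, -0.04) and Dnajc28 (11 and 16 reads, -0.06).

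**Figure D3:**
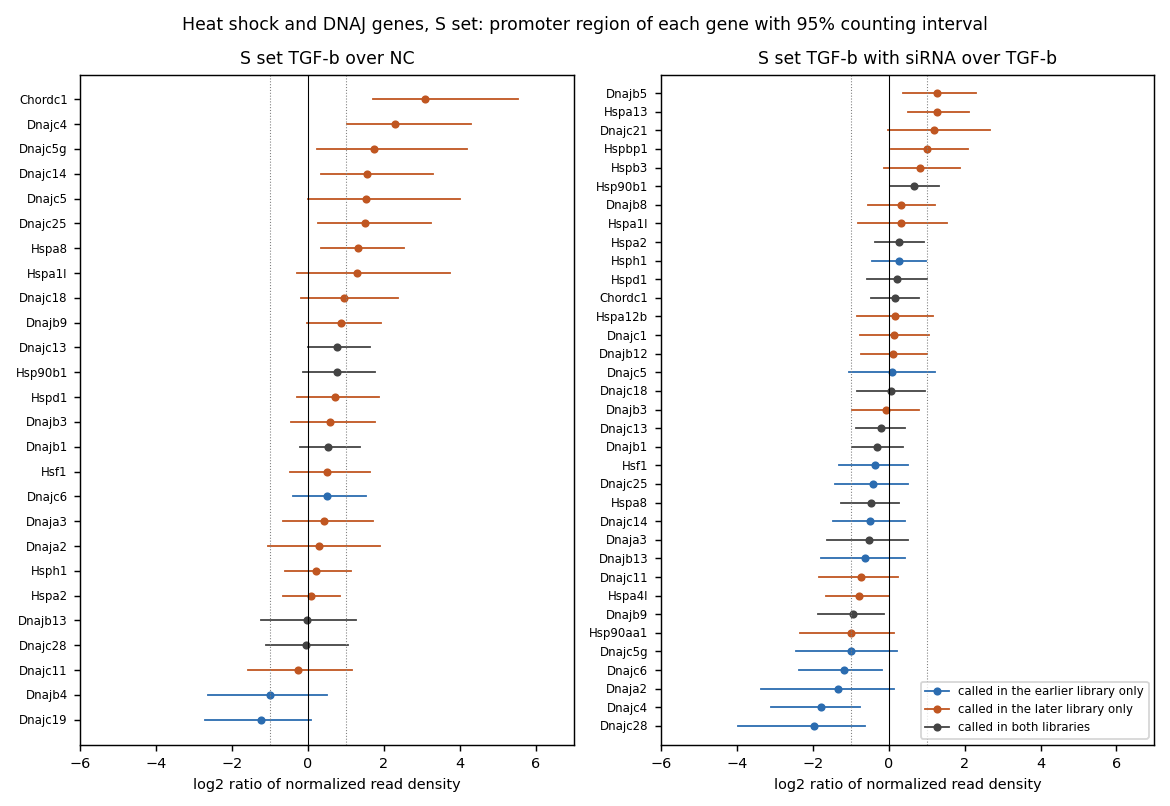
The same plot for the S set, TGF-b over NC on the left (26 genes) and TGF-b with siRNA over TGF-b on the right (35 genes). On the left 21 of 26 points lie above 0, led by Chordc1 at 3.09, and on the right 17 of 35 lie above 0 with values from -1.97 to 1.27.

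Under siRNA over TGF-b in the S set, 35 members had a median log2 ratio of -0.08, against 0.05 for all 8145 genes, and 48.6% were above 0 against 50.6%. At least 2-fold higher were 4 members (11.4%, against 13.6% of all genes) and at least 2-fold lower 4 members (11.4%, against 15.1%). The interval lay above 0 in 4 (against 12.3%) and below 0 in 4 (against 14.3%), all near or under the background. Dnajb5 was highest with 12 reads in TGF-b and 29 with siRNA, a ratio of 1.27 (0.38 to 2.29), followed by Hspa13, an ER-associated HSP70, with 17 and 41 reads and a ratio of 1.26 (0.51 to 2.12). Dnajc21, a DNAJ protein of ribosome assembly, held 6 and 14 reads, a ratio of 1.20 (-0.01 to 2.66). Hsp90b1 was also higher, with a ratio of 0.66 (0.04 to 1.32), as was Hspbp1, with 11 and 22 reads and a ratio of 1.01 (0.05 to 2.1). Below 0 with its interval were Dnajc4 at the values given above, Dnajb9 (-0.95, -1.87 to -0.12) and, at an intron region, Dnajc6, the uncoating factor auxilin of clathrin vesicles, with 23 and 9 reads (-1.19, -2.36 to -0.19). Dnajc28 held 16 and 3 reads, a ratio of -1.97 (-3.98 to -0.62). Hsp90aa1 held 16 and 7 reads (-0.99, -2.34 to 0.14), Hspa4l 31 and 17 reads (-0.78, -1.66 to 0.02), and Dnajc5g 14 and 6 reads (just under 2-fold lower at -1.0, -2.45 to 0.21). The ratios were smaller at Dnajb1 (-0.30, -0.98 to 0.37), Hsf1 (-0.37, -1.31 to 0.52), Hspd1 (0.22, -0.58 to 1.02) and Hsph1 (0.26, -0.45 to 0.99).

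**Figure D4:**
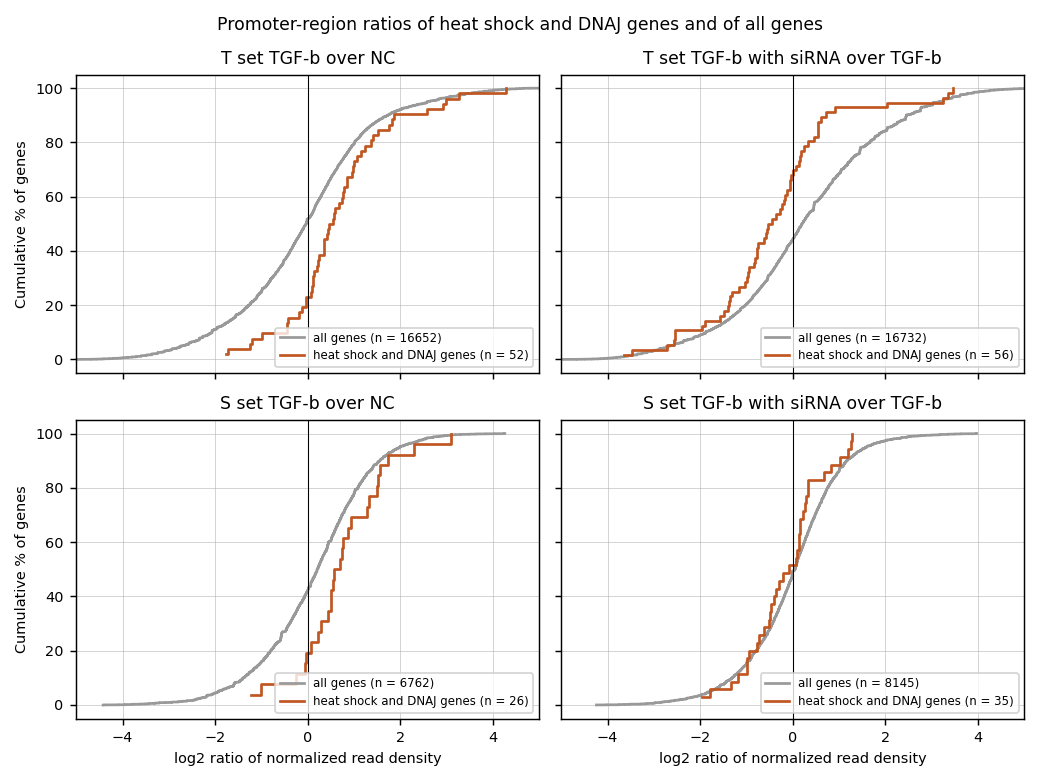
Cumulative percentage of genes (y axis) against the log2 ratio of normalized read density (x axis, -5 to 5) for the heat shock and DNAJ genes (orange) and all genes (grey), in 1 panel per table. The member line lies to the right of all genes for TGF-b over NC in both sets, with medians of 0.51 against -0.04 and 0.64 against 0.20, to the left for siRNA in the T set (-0.50 against 0.20), and close to it for siRNA in the S set (-0.08 against 0.05).

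The call of a region rests on the same reads as its ratio. The order of the medians by calling library is therefore built in and is no result. In the T set table of TGF-b and NC, the 18 members called in TGF-b only had a median log2 ratio of 1.12 (all genes 1.11), the 15 called in both 0.56 (all genes 0.30) and the 19 called in NC only 0.12 (all genes -0.85). In the T set table with siRNA, the 16 members called in TGF-b only had a median of -1.74 (all genes -1.08), the 21 called in both -0.56 (all genes -0.19) and the 19 called with siRNA only 0.19 (all genes 1.19). Regions called in both libraries were more frequent among members, 28.8% against 20.1% and 37.5% against 17.3% in these tables, and 19.2% against 7.88% and 28.6% against 16.7% in the S set tables. Member regions held more reads, as given above, and the part of depth in these shares was not tested.

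For 32 genes of the T set and 19 of the S set the densest region was the same in both tables, so that the reads of 3 libraries stand side by side. A region enters both tables only if it was present in the merged calls of each, and the reads are not scaled to library size. The tables of a set share only the TGF-b library, so these regions are favoured where TGF-b is high, and the order of the libraries at them is no result: in such T set regions the median of all genes for TGF-b over NC was 0.59, not -0.04. The highest read number of the T set was the 112 of Hsp90b1 in TGF-b, and that of the S set the 49 of Hsp90b1 with siRNA.

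**Figure D5:**
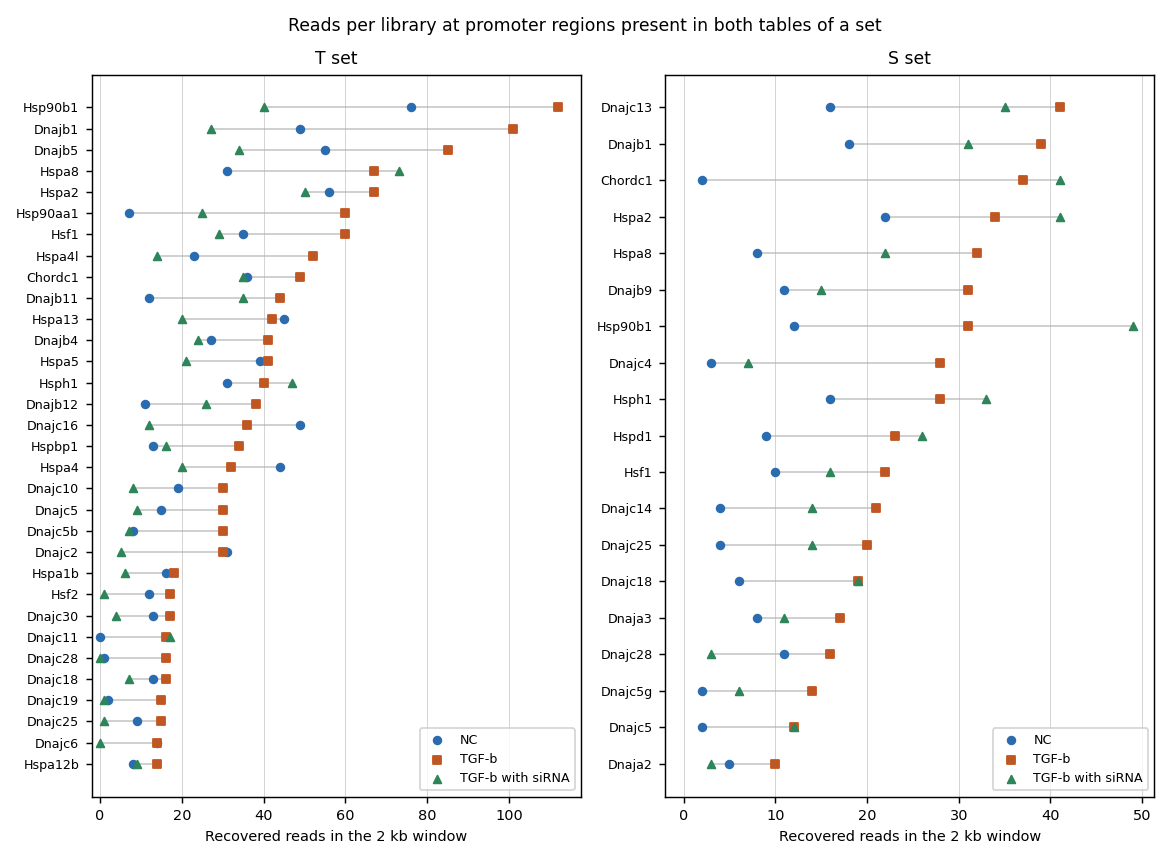
Reads recovered from the densities (x axis) in NC (blue circles), TGF-b (orange squares) and TGF-b with siRNA (green triangles) at promoter regions present in both tables of a set, T set on the left (32 genes) and S set on the right (19 genes), ordered by TGF-b reads. Presence in both tables favours regions with signal in TGF-b, and the reads are not scaled to library size. The order of the libraries is therefore no result.

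The positions of the regions were compared between the sets. Member regions lie nearer the TSS than those of all genes, as given above, and the part of this in the overlap was not tested. Of 23 members with a region for TGF-b over NC in both sets, 16 had overlapping regions (69.6%, against 42.7% of 4976 genes), and the median gap between summits was 106 bp against 400 bp. For siRNA over TGF-b the overlap was 20 of 33 members (60.6%, against 49.3% of 6132 genes) and the gap 92 bp against 183 bp. For TGF-b over NC the gaps ran from 3 bp at Hsf1 to 16488 bp at Dnajb4. For siRNA over TGF-b they ran from 2 bp at Hspa13 to 171604 bp at Dnajc1. At Dnajc13 the gap was 6 bp for TGF-b over NC and 614 bp for siRNA over TGF-b. The log2 ratio of TGF-b over NC was above 0 in both sets in 16 of 23 members (69.6%) and in 36.0% of all genes. The interval was above 0 in both sets for 2 members, Hspa8 and Dnajc14, against 7.19% of all genes. For siRNA over TGF-b the ratio was below 0 in both sets in 13 of 33 members (39.4%) and in 24.0% of all genes, and the interval was below 0 in both for Dnajc6, at regions far apart, and Dnajc28, against 2.66% of all genes. Across the 23 members the T and S ratios had a Pearson r of -0.36, and across the 33 members 0.29. These values are descriptions across genes that share libraries, and at these counts neither says that the sets moved alike.

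Members with and without heat shock element letters did not separate in a single direction. Of T set members, the 11 with either element had a median log2 ratio of 0.24 for TGF-b over NC and 0.01 for siRNA over TGF-b, and the 30 and 34 members without had 0.55 and -0.41. In the S set, the 5 members with an element had medians of 0.70 and 0.22, and the 16 and 23 without had 0.55 and -0.20.

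The partners of these chaperones were taken from a list of 63 other genes. A T set region for TGF-b over NC was found for 46 of them, 11 were at least 2-fold higher (against 20.6% of all genes) and 6 lower (against 25.1%), and their median log2 ratio was 0.20 against -0.04. Among 15 HSP90 co-chaperones, 12 had a region, 5 were at least 2-fold higher (against 20.6% of all genes) and 1 lower (against 25.1%). The interval lay above 0 in 5 (against 22.7% of all genes) and below 0 in 2 (against 21.7%). The higher ones included Fkbp5 (13 and 47 reads, a ratio of 1.81), Ptges3 (9 and 30, 1.70) and Cdc37, which brings kinases to HSP90 (7 and 27, 1.89). Below 0 with its interval were Ahsa1, an activator of the HSP90 ATPase (6 and 0 reads, interval ending at -0.40), and Stip1, which links HSP70 to HSP90 (162 and 109 reads, -0.69, -1.04 to -0.34). Of 10 ER folding genes 7 had a region, none was at least 2-fold higher (against 20.6% of all genes) and 2 were lower (against 25.1%), with Manf at 32 and 5 reads and a ratio of -2.37. Among other stress-response genes, 4 of 8 were at least 2-fold higher (against 20.6% of all genes), including Cryab, a small heat shock protein of muscle (16 and 55 reads, 1.74), and Atf4, a factor of the integrated stress response (9 and 50 reads, 2.39). In the S set 2 of these genes had a region for TGF-b over NC, 0 at least 2-fold higher and 1 lower, with a median of -0.36. With siRNA the T set had 44 of the listed genes, 4 at least 2-fold higher (against 31.5% of all genes) and 9 lower (against 20.4%), with a median of -0.22 against 0.20, and the co-chaperone Sugt1 held 34 reads in TGF-b and 2 with siRNA, a ratio of -3.09 (-5.54 to -1.71). In the S set, 16 and 21 of the listed genes had a region, with medians of 0.45 and 0.05 against 0.20 and 0.05 for all genes. At least 2-fold higher and lower were 3 and 2 of them over NC (against 22.2% and 15.9% of all genes) and 1 and 2 over TGF-b (against 13.6% and 15.1%). There Pdia4, an ER disulphide isomerase, held 15 reads in NC and 49 in TGF-b (1.11, 0.35 to 1.99). The co-chaperones Fkbp4 (11 and 3 reads, -2.18, -4.20 to -0.73) and Fkbp5 (19 and 14 reads, -0.97, -1.97 to -0.02) were lower, the latter against 1.81 in the T set. Bag1, an HSP70 exchange factor, held 19 reads in TGF-b and 47 with siRNA (1.30, 0.58 to 2.10).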

How the data were processed

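The 6 CUT&Tag libraries were compared in 4 deposited tables, each over the merged peaks of 2 libraries of a set. Per the study's methods, Bowtie2 and GRCm39 were used for mapping and peaks were called with a program written Masc2 (versions not given in the sources used here), whereas the submitters' processing notes list BWA 0.7.12 and mm10. Contig names in the tables belong to GRCm39. Coordinates of regions are on that build and those of RefSeq promoters on GRCm38.p6. The deposited density is a signal, 0.5 for each read plus 1, that the authors rescaled along a line so that regions called in both libraries centre on 0. It is not scaled to library size, and total depth was not analysed here. The fold changes and p-values of the authors' own comparisons were not used, and 0 columns of other samples were present.

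For each gene the region of highest mean density within 3 kb of the TSS was kept, by the authors' assignment, and the log2 ratio of the later over the earlier library was taken within a table, for all genes. With the line undone, 99.98% to 99.99% of regions came to whole read numbers (tolerance 0.1). The 95% interval after a ratio is the Wilson interval of the later library's share of reads, moved by the line. It covers counting error only. A fold against a library with 3 or fewer reads was also taken with 3 reads as the floor. No test was made, as there are no replicates.

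The members, gene lists and named genes were chosen with earlier results of these data known. Named were 25 stress-inducible or abundant members (20 with a region), per table the 3 highest and 3 lowest ratios among members with 20 reads or more, and members at least 2-fold apart in opposite directions in the tables of a set with 20 reads or more in each. Hspbp1 and the named genes of the 63 listed partners were chosen after their values were seen. Alternatives were other region rules, thresholds of 1.5-fold and 4-fold, no line, centring, and filters on reads, distance and chromosomes. Python 3.11.15, pandas 2.3.3, NumPy 2.4.6, SciPy 1.17.1 and matplotlib 3.10.9 were used, and the procedure was tested on simulated data.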

Additional observations from a re-analysis of the deposited data

Results flagged for a closer look

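For 3 members the T and S sets lay at least 2-fold in opposite directions under the same contrast. For Dnajc19, a mitochondrial import protein, the log2 ratio of TGF-b over NC was 2.57 in the T set (2 and 15 reads) and -1.23 in the S set (10 and 6 reads), at overlapping regions. For Dnajc5g it was -1.73 in the T set (17 and 4 reads) and 1.73 in the S set (2 and 14 reads), at regions whose summits lay 2862 bp apart. For Dnaja2, a cytosolic HSP40, siRNA over TGF-b was at least 2.37-fold higher in the T set (0 and 6 reads, with 3 reads as the floor of TGF-b, and a fitted log2 ratio of 3.25 that is no bound) and had a log2 ratio of -1.33 (-3.36 to 0.14) in the S set (10 and 3 reads), at regions whose summits lay 5382 bp apart. With 1 library per treatment the differences between the sets were not tested, and each rests on a library with 10 or fewer reads.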

How the results depend on the processing

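Of 160 recomputed medians and counts, 120 stayed near the value reported. Shares of all genes follow each count in parentheses. The count of T set members at least 2-fold higher with TGF-b (14) was 9 (18.1%) by the mean over regions of a gene, 24 (30.8%) at 1.5-fold and 5 (7.93%) at 4-fold. The count lower (4) was 0 at 4-fold (11.1%) and among regions present in the other table (5.52%), and 1 (26.2%) without genes that have another TSS within 1 kb. The T set median for siRNA over TGF-b (-0.50) was -0.98 without the authors' line and -0.05 by the mean over regions. The count higher there (4) was 7 by the higher single density (33.0%) and at 1.5-fold (40.6%), 1 (19.4%) with 20 reads or more, and 0 in regions present in the other table (7.89%) or within 1 kb with 20 reads or more (14.9%). The count lower (16) was 28 (31.1%) without the line, 9 with 20 reads or more, without (20.9%) or with (23.0%) the limit of 1 kb, 25 (28.8%) at 1.5-fold and 6 (9.04%) at 4-fold. The S set count higher with TGF-b (8) was 18 (42.7%) without the line, 5 with 20 reads or more, without (22.2%) or with (23.4%) the limit of 1 kb, 4 (21.6%) without shared promoters, 13 (35.8%) at 1.5-fold and 2 (4.79%) at 4-fold. The count lower (2) was 1 (16.4%) without shared promoters and 0 without the line (8.40%), at 4-fold (4.44%), with 20 reads or more (7.13%, and 4.90% within 1 kb) and in regions present in the other table (2.15%). The S set median for siRNA (-0.08) changed sign to 0.06 with 20 reads or more, also within 1 kb. The count higher (4) was 0 at 4-fold (2.63%) and in regions present in the other table (2.97%), and the count lower (4) was 7 (18%) without the line, 2 with 20 reads or more (11.2%, and 9.36% within 1 kb) and without shared promoters (15.7%), 10 (25.2%) at 1.5-fold and 0 (3.54%) at 4-fold. Presence in the other table favours regions with signal in TGF-b, the library both tables share, so counts under it bear on no direction. By the mean over regions of a gene, the sign changed, among named T set genes at least 2-fold apart, for Dnajc13 (-0.66) and Dnajc5b (-0.65) with TGF-b and for Dnajc2 (0.11), Dnajc28 (0.27) and Dnajc5b (0.33) with siRNA. Among the other named genes it changed for Dnajb13 (-0.04), Dnajc6 (-1.59), Hsp90b1 (-0.85) and Hspa1b (-0.95) with TGF-b and Dnajb5 (0.14), Hsf1 (0.14), Hspa2 (-0.05) and Hspa5 (0.34) with siRNA in the T set, and for Dnajb13 (0.61) and Dnajc13 (-0.03) with TGF-b in the S set. The cause of these changes was not tested. The limit of 1 kb with 20 reads, protein-coding genes alone and the removal of shared promoters were chosen after seeing the data. No paired analysis was possible because each set has 1 library per treatment. With a median of 28.5 to 40.5 reads per member region over both libraries, smaller differences could not be told from counting error.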

Other observations

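Of the 61 members in the promoter table, 20 have another gene's start within 1 kb, and 16 of these had a promoter region, so the assignment of a region to the chaperone is shared with a neighbour there. Examples are Hspd1 with Hspe1, Hspa1a with Hspa1l, Dnajb4 with Fubp1 and Hspb6 with Proser3. Several regions within 3 kb were found for 28 of 52 T set members in the table of TGF-b and NC and for 4 of 26 S set members, with up to 4 at Dnajc13 in that T set table. In the T set table of siRNA and TGF-b they were found for 26 of 56 members, with up to 6 at Hsph1.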
